A study of Mus musculus with 10 samples.

Results

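Transcripts of 9 cyclic nucleotide phosphodiesterase genes (Pde1b, Pde2a, Pde3b, Pde4a, Pde4b, Pde4d, Pde7a, Pde7b and Pde8a) were followed in cultured mouse peritoneal macrophages with and without Gsα. The 9 genes were chosen by name, with earlier results of these data known. Each was found in the deposited count table by its gene identifier, as 9 of 53465 genes. The whole family has 24 genes in the table, so 15 further family members served for comparison. Bulk RNA was sequenced from 5 Mac-GsαKO libraries (KO) and 5 CTR libraries, in a study of how macrophages become foam cells in atherosclerosis. Mice of both genotypes were 6 to 8 weeks old, and all cells were grown in the same medium with no agent added. The KO genotype, per its name, lacks Gsα in macrophages. The promoter that drives the deletion and the exact CTR genotype are not given in the labels. Nothing in the labels ties a library to its own mouse. Errors and p-values therefore cover the spread among libraries, which may be technical.

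Phosphodiesterases hydrolyse the second messengers cAMP and cGMP and so end their signals. Gsα, the product of Gnas, couples receptors to adenylyl cyclases, which make cAMP, so phosphodiesterases act on the opposite side of the same balance. The Pde4, Pde7 and Pde8 enzymes are specific for cAMP, the Pde5, Pde6 and Pde9 enzymes for cGMP, and the Pde1, Pde2, Pde3, Pde10 and Pde11 enzymes cleave both. In macrophages, cAMP acting through protein kinase A is known to restrain production of inflammatory cytokines, and drugs against the Pde4 enzymes are anti-inflammatory.

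Libraries held between 16877249 and 19235777 counts in KO and between 15664243 and 18028974 counts in CTR. Values are CPM, counts scaled by TMM-adjusted library totals. A gene at 0 counts could be as high as 3 counts, or 0.154 to 0.203 CPM, by counting error alone. Gnas averaged 40.2 ± 2.62 CPM in KO and 435.0 ± 62.4 CPM in CTR (SD, n = 5 each), and the groups did not overlap. Gnas counts take in exons outside any deleted stretch, so they check the labels and do not measure Gsα protein. The first principal component split the genotypes, with KO at 11.6 to 28.7 and CTR at -34.7 to -6.85. CTR 4 and CTR 5, both at -34.7, stood apart from the other CTR libraries and lay furthest from KO. CTR 4 also stood apart on the second component, so fold changes are also given without both. Markers of resident large peritoneal macrophages summed to 21.04 to 28.9 CPM in KO and 43.7 to 118 CPM in CTR, with 5 of the 8 called lower in KO and none at 0 in every library. Platelet markers summed to 31.5 to 57.7 CPM in KO and 79.9 to 151 CPM in CTR, with Gp9 at 0 in every library. Only 1 of the 4 platelet markers passed the filter on low counts, and it was called lower. Mitochondrially encoded genes held 1.20 to 1.36% of counts in KO and 1.39 to 1.97% in CTR. The part of these measures in the values below was not tested. All 10 macrophage markers passed the filter, with 2 called higher and 1 lower, and summed to 15248 to 16817 CPM in KO and 30616 to 39133 CPM in CTR. A sum follows its most abundant markers, in this list and in the others, and the calls per macrophage marker went both ways. Whether the share of macrophages differed was not tested. The summed markers of the other 10 cell types overlapped between the genotypes. In a bulk sample, fewer cells of a type and less RNA per cell cannot be told apart.

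None of the 9 phosphodiesterase genes passed the test between the genotypes. The test was edgeR's quasi-likelihood test with p-values adjusted over all 13203 genes tested and a threshold of 0.05, at which 520 genes, or 3.94%, were called. All 9 genes passed the filter on low counts. Without adjustment, 3 of the 9 (Pde2a, Pde4a and Pde4b) had a p under 0.05, against 21.9% of all genes tested. In none of the 9 did the genotypes fail to overlap, against 7.80% of all genes tested. The fold change was above 0 for 4 of the 9 and below 0 for 5, with a median log2 fold change of -0.02, against -0.01 over all genes tested. Without CTR 4 and CTR 5 again none of the 9 was called, against 8.76% of all genes tested, and their median was -0.13.

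**Figure D1:**
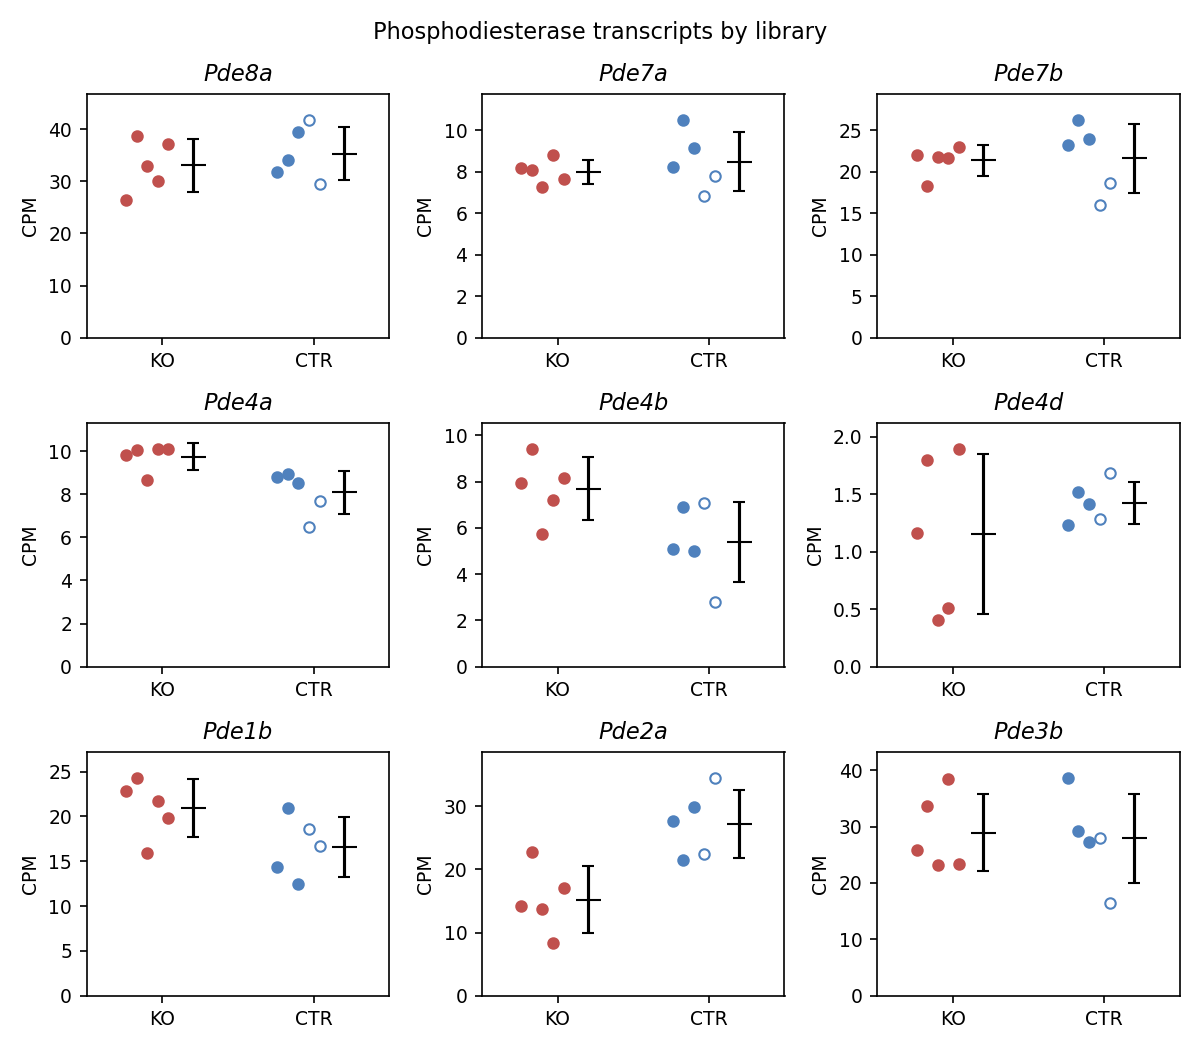
Expression (CPM, axes starting at 0) of the 9 phosphodiesterase genes, with 1 point per library, KO left of CTR, and the mean ± SD over 5 libraries beside each group; open points are CTR 4 and CTR 5. The genotypes overlap in every panel, and in the Pde2a panel 4 of 5 KO points lie below all CTR points.

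Pde8a had the highest mean level per length of the 9 genes when each was taken as counted. On the authors' deposited FPKM (counts scaled to gene length and library total), it ranged from 6.20 to 9.15 over the 10 libraries and lay above Pde3b in all 10, with no overlap of their ranges. Pde3b (1.67 to 3.82 FPKM), Pde1b (1.65 to 3.27 FPKM) and Pde2a (0.656 to 2.79 FPKM) followed. These neighbours were not set apart by their spread: Pde3b exceeded Pde1b in 7 of 10 libraries, and Pde1b exceeded Pde2a in 7 of 10. Pde2a exceeded Pde7b (0.934 to 1.70 FPKM) in 6 of 10. Pde7b, Pde4a (0.563 to 0.979 FPKM), Pde7a (0.480 to 0.822 FPKM), Pde4b (0.172 to 0.574 FPKM) and Pde4d (0.0239 to 0.110 FPKM) kept this order in all 10 libraries, though the ranges of neighbours overlapped except for Pde4b and Pde4d.

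The order below Pde8a depended on the length used. The length behind the deposited FPKM was 16675 bases for Pde4b and 12690 bases for Pde2a, while the longest GENCODE M21 transcripts have 4304 and 4218 bases. For Pde8a these lengths were closer, at 4312 and 3802 bases. The deposited FPKM therefore place Pde8a higher against Pde4b and Pde2a than the longest transcripts do. Per kilobase of the longest transcript, Pde2a came second after Pde8a, followed by Pde1b, Pde3b, Pde7b, Pde4a, Pde4b, Pde7a and Pde4d. On that scale Pde2a exceeded Pde1b in 5 of 10 libraries. Pde8a exceeded Pde2a in 9 of 10 libraries there, with overlapping ranges, and Pde4d came last on both scales. In GENCODE M21, Pde2a shares 3955 of its 6149 exon bases with a second gene, Gm45837. With the counts of both taken as Pde2a, the level per kilobase was 7.81 ± 0.999 in KO and 9.66 ± 1.47 in CTR (SD, n = 5 each), and Pde8a had 8.69 ± 1.32 in KO and 9.29 ± 1.36 in CTR. Pde8a was then the higher in 4 of 5 KO libraries and 1 of 5 CTR libraries, so its first place on that scale depended on how these reads were split. With the deposited FPKM of both added, Pde8a was higher in all 10.

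With each gene as counted, the substrate classes of the family differed between the genotypes by less than the spread of the libraries. The deposited FPKM of the 21 genes that encode catalytic subunits summed to 19.2 ± 1.85 in KO and 19.1 ± 1.26 in CTR (SD, n = 5 each). The cAMP-specific genes made up 62.3 ± 3.15% of that sum in KO and 61.5 ± 3.11% in CTR. Genes for enzymes that cleave both nucleotides made up 36.4 ± 3.63% in KO and 37.0 ± 3.06% in CTR, and cGMP-specific genes 1.29 ± 0.523% in KO and 1.45 ± 0.437% in CTR. Pde8a alone gave 40.3 ± 4.02% in KO and 42.1 ± 4.12% in CTR. The 9 chosen genes together gave 94.5 ± 0.550% in KO and 95.4 ± 0.486% in CTR, a gap wider than either SD, with ranges that overlapped (93.9 to 95.3% in KO and 95.0 to 96.0% in CTR). These shares depend on the length used and leave out Gm45837, and no test was run on them. With the FPKM of Gm45837 added to Pde2a, a setting chosen after the data were seen, the cAMP-specific share was 50.7 ± 2.70% in KO and 52.8 ± 2.13% in CTR. The share of genes for enzymes that cleave both nucleotides was then 48.2 ± 2.75% in KO and 45.9 ± 1.92% in CTR. The FPKM of Gm45837 rests on 4139 bases and that of Pde2a on 12690, so a read weighs more when given to Gm45837. Added this way, the pair had 5.55 ± 0.800 FPKM in KO and 5.35 ± 1.44 FPKM in CTR. The summed counts went the other way, with 32.9 CPM in KO and 40.8 CPM in CTR. The shares with Gm45837 added therefore depend on these lengths and on how reads were split.

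**Figure D2:**
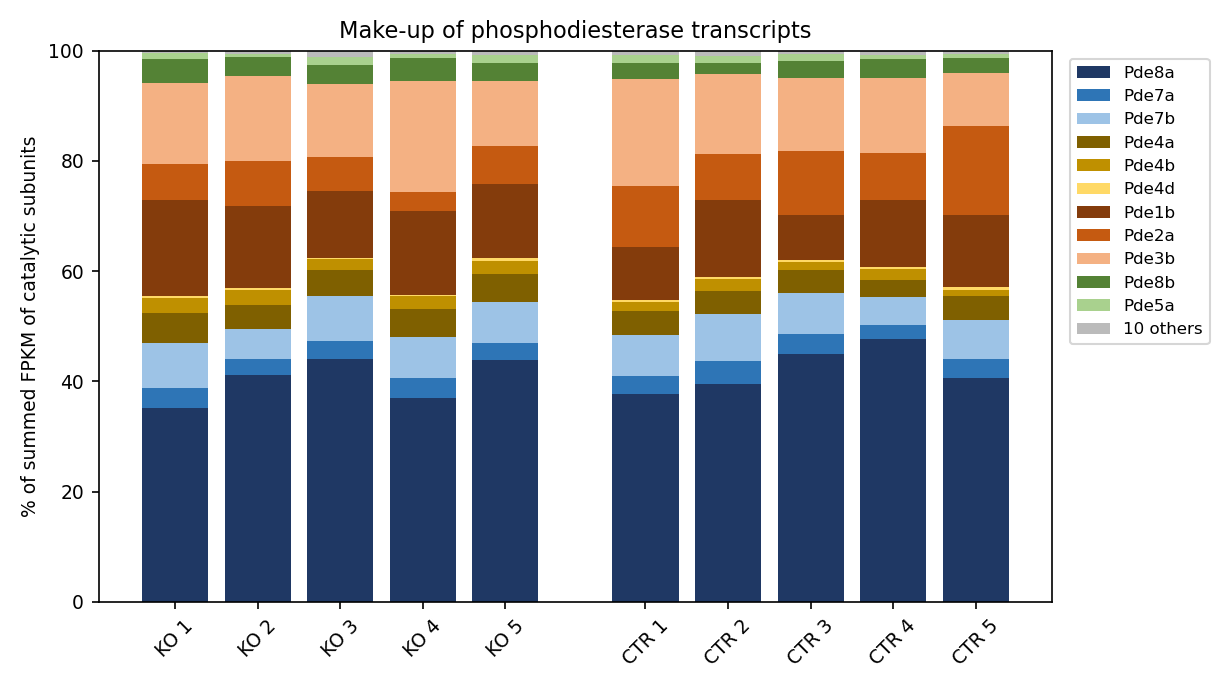
Share of each gene in the summed deposited FPKM of the 21 catalytic subunit genes, as 1 stacked bar per library (KO left, CTR right; vertical axis in percent). Pde8a fills 35.2 to 44.1% of the KO bars and 37.6 to 47.6% of the CTR bars, the widest band in each bar. The shares depend on the gene lengths behind the FPKM and leave out Gm45837.

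Among the cAMP-specific genes, Pde8a (ENSMUSG00000025584, chromosome 7) encodes a high-affinity enzyme that resists the broad inhibitor IBMX. It had 26.4, 38.6, 33.0, 30.1 and 37.2 CPM in KO 1 to KO 5, and 31.8, 34.1, 39.4, 41.8 and 29.5 CPM in CTR 1 to CTR 5. The lowest library was KO 1 and the highest CTR 4, and the groups overlapped over most of their range. The log2 fold change of KO over CTR was -0.10 (SE 0.13, adjusted p = 0.699 by edgeR's quasi-likelihood test), and -0.09 (SE 0.13) without CTR 4 and CTR 5.

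Pde7a and Pde7b encode high-affinity cAMP phosphodiesterases that the Pde4 inhibitor rolipram does not block. Pde7b (ENSMUSG00000019990, chromosome 10) had 22.1, 18.2, 21.8, 21.7 and 23.0 CPM in KO, and 23.2, 26.3, 23.9, 16.0 and 18.6 CPM in CTR. All KO libraries lay within the CTR range, in which CTR 4 and CTR 5 were the low ones. Its log2 fold change was -0.02 (SE 0.14, adjusted p = 0.951 by edgeR), and -0.19 (SE 0.09, adjusted p = 0.210) without CTR 4 and CTR 5. Pde7a (ENSMUSG00000069094, chromosome 3) had 8.17, 8.09, 7.29, 8.83 and 7.64 CPM in KO, and 8.21, 10.5, 9.14, 6.83 and 7.79 CPM in CTR. Here too every KO library lay within the CTR range. The log2 fold change of Pde7a was -0.09 (SE 0.13, adjusted p = 0.733), and -0.21 (SE 0.12, adjusted p = 0.310) without CTR 4 and CTR 5.

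The Pde4 genes encode the rolipram-sensitive cAMP phosphodiesterases, of which Pde4b is known in mouse macrophages for its part in the TNF response to lipopolysaccharide. Pde4b (ENSMUSG00000028525, chromosome 4) had 7.94, 9.43, 5.72, 7.202 and 8.16 CPM in KO, and 5.08, 6.89, 5.02, 7.10 and 2.81 CPM in CTR. In KO, 4 of 5 libraries lay above all CTR libraries, with KO 3 the exception, and CTR 5 was the lowest library. The log2 fold change was 0.52 (SE 0.23, adjusted p = 0.209 by edgeR), which did not pass, and 0.44 (SE 0.18, adjusted p = 0.155) without CTR 4 and CTR 5.

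Pde4a (ENSMUSG00000032177, chromosome 9) had 9.79, 10.04, 8.63, 10.07 and 10.1 CPM in KO, and 8.77, 8.94, 8.52, 6.49 and 7.67 CPM in CTR. Again 4 of 5 KO libraries lay above all CTR libraries, with KO 3 within the CTR range. Its log2 fold change was 0.27 (SE 0.12, adjusted p = 0.214 by edgeR) with all libraries. Without CTR 4 and CTR 5, the lowest libraries for Pde4a, it was 0.16 (SE 0.10, adjusted p = 0.376).

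Pde4d (ENSMUSG00000021699, chromosome 13) was the least abundant of the 9 genes and rested on 7 to 35 counts per library in KO and 19 to 27 in CTR. It had 1.16, 1.79, 0.408, 0.506 and 1.90 CPM in KO, and 1.23, 1.52, 1.41, 1.28 and 1.68 CPM in CTR. On CPM all KO libraries lay outside the CTR range, with KO 1, KO 3 and KO 4 below it and KO 2 and KO 5 above it. By raw counts KO 1, with 20, lay within the CTR range. The log2 fold change was -0.30 (SE 0.39, adjusted p = 0.683 by edgeR), and -0.26 (SE 0.47) without CTR 4 and CTR 5, so a change of the size fitted was not detectable with this spread between libraries. Pde4c was at 0 in all 10 libraries. Of the summed Pde4 FPKM, Pde4a gave 64.2 ± 4.23% in KO and 65.8 ± 6.89% in CTR (SD, n = 5 each). Pde4b gave 31.4 ± 2.22% in KO and 27.1 ± 7.79% in CTR, and Pde4d 4.37 ± 2.34% in KO and 7.08 ± 1.51% in CTR.

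Because transcription of some phosphodiesterase genes is known to respond to cAMP through the factor CREB, promoter windows from RefSeq (GRCm38.p6, 250 bases before to 50 after each annotated start) were searched on both strands. The cAMP response element was spelled TGACGTCA and its half-site TGACG, which the opposite strand reads as CGTCA. The full element contains both half-site spellings. Of the 9 genes, 7 had windows, 18 in all, and Pde3b and Pde7a had none. The full element was in 0 of the 18 windows, against 1.79% of 32851 windows of all genes. A half-site was in 4 of the 18 (22.2%), against 20.8% of all windows, in 1 window each of Pde2a, Pde4a, Pde4b and Pde8a. The windows of the 3 genes with an unadjusted p under 0.05 are shown from 250 bases before to 30 after the start, with the half-site in capitals. They are chr4:102421305-102421584 for Pde4b, chr9:21183851-21184130 for Pde4a and chr7:101450270-101450549 for Pde2a, each on the plus strand and 1 of several annotated starts of its gene.
Pde4b: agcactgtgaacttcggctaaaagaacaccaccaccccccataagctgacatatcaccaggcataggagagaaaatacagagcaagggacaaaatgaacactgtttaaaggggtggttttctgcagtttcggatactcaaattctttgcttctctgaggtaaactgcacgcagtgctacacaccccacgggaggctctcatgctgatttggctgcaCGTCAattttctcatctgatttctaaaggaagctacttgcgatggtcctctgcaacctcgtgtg
Pde4a: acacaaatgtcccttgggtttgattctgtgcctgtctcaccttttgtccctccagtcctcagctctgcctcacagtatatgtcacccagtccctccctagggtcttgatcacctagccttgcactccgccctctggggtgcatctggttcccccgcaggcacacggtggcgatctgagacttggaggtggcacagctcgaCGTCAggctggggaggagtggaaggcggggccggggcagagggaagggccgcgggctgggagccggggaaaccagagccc
Pde2a: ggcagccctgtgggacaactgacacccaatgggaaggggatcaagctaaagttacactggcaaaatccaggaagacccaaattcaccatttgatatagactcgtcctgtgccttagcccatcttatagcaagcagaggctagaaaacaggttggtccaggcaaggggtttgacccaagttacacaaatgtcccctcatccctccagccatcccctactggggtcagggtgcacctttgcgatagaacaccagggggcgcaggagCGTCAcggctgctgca
The half-site lies before the start in Pde4b and Pde4a and just after it in Pde2a. These letters are a description of the windows and do not show that a factor binds there.

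Among the genes whose enzymes cleave both nucleotides, Pde1b (ENSMUSG00000022489, chromosome 15) encodes a calcium- and calmodulin-activated enzyme. It had 22.9, 24.3, 15.9, 21.8 and 19.8 CPM in KO, and 14.4, 20.9, 12.5, 18.6 and 16.7 CPM in CTR. In KO, 3 of 5 libraries lay above all CTR libraries, and KO 3 was the low one. The log2 fold change was 0.34 (SE 0.16, adjusted p = 0.229 by edgeR), and 0.40 (SE 0.18, adjusted p = 0.192) without CTR 4 and CTR 5.

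Pde3b (ENSMUSG00000030671, chromosome 7) encodes the cGMP-inhibited enzyme through which insulin lowers cAMP in fat cells. It had 25.9, 33.7, 23.2, 38.4 and 23.3 CPM in KO, and 38.7, 29.2, 27.2, 28.0 and 16.5 CPM in CTR. CTR 1 was the highest library and CTR 5 the lowest, so all KO libraries lay within the CTR range. The log2 fold change was 0.05 (SE 0.21, adjusted p = 0.910 by edgeR), and turned to -0.13 (SE 0.19, adjusted p = 0.718) without CTR 4 and CTR 5.

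Pde2a (ENSMUSG00000110195, chromosome 7), whose enzyme is stimulated by cGMP binding to its regulatory domain, was the gene of the 9 with the lowest p. It had 14.2, 22.7, 13.8, 8.27 and 17.1 CPM in KO, and 27.6, 21.6, 29.9, 22.4 and 34.5 CPM in CTR. In KO, 4 of 5 libraries lay below all CTR libraries, and KO 2 lay above CTR 2 and CTR 4. It averaged 15.2 ± 5.27 CPM in KO and 27.2 ± 5.397 CPM in CTR (SD, n = 5 each). Its log2 fold change was -0.84 (SE 0.23), which is 44.0% lower in value. By p it ranked 645 of the 13203 genes tested, and the adjusted p of 0.0587 by edgeR's quasi-likelihood test did not pass. Without CTR 4 and CTR 5 the log2 fold change was -0.79 (SE 0.25, adjusted p = 0.0804).

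Pde2a passed the threshold in 4 of 19 other settings. By the DESeq2 Wald test its adjusted p was 0.00888, where 9.76% of all genes tested were called. By limma voom with sample quality weights the adjusted p was 0.0180, where 14.5% were called. With a correction for gene length and GC content in edgeR it was 0.0246, where 4.42% were called. Without CTR 4 in edgeR it was 0.0456, where 6.49% were called. Over the 19 settings the log2 fold change lay between -1.03 and -0.68, so its sign was the same in each, and the adjusted p lay between 0.00888 and 0.133.

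Part of the Pde2a signal was shared with a second annotated gene. Gm45837 (ENSMUSG00000030653) is annotated in GENCODE M21 (GRCm38) on the same strand and joins the neighbouring gene Arap1 to Pde2a. Of its 32 exons, 31 overlap an exon of Pde2a. Of its 4139 exon bases, 3955 (95.6%) are shared with Pde2a, 150 with Arap1 and 34 with neither. Those 3955 bases are 64.3% of the 6149 exon bases of Pde2a. The length behind the deposited FPKM of Gm45837 was also 4139 bases. The authors' rule for reads that fit both genes is not given here. A read from the shared exons does not tell the genes apart, so the split of counts between them is uncertain.

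Gm45837 had 18.8, 11.1, 21.7, 17.6 and 19.5 CPM in KO, and 7.82, 18.5, 21.1, 14.0 and 6.42 CPM in CTR. KO 2, the KO library highest in Pde2a, was the lowest of them in Gm45837, and likewise CTR 5 among the CTR libraries. Other libraries did not follow this: CTR 3 was high in both genes. KO 4, the KO library lowest in Pde2a, was also below KO 1, KO 3 and KO 5 in Gm45837. The log2 fold change of Gm45837 was 0.38 (SE 0.30, adjusted p = 0.489 by edgeR), the other way from Pde2a. Gm45837 held 54.4 ± 13.3% of the counts of the pair in KO and 32.7 ± 13.1% in CTR (SD, n = 5 each), and in 4 of 5 KO libraries this share lay above that of all CTR libraries.

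With the counts of Pde2a and Gm45837 summed, a setting added after the data were seen, the difference was smaller. The pair had 33.0, 33.8, 35.5, 25.8 and 36.6 CPM in KO, and 35.4, 40.0, 51.0, 36.4 and 41.0 CPM in CTR. In KO, 3 of 5 libraries lay below all CTR libraries, KO 3 lay above CTR 1, and KO 5 lay above CTR 1 and CTR 4. The pair averaged 32.9 ± 4.21 CPM in KO and 40.8 ± 6.20 CPM in CTR (SD, n = 5 each), and its log2 fold change was -0.31 (SE 0.12, adjusted p = 0.172 by edgeR).

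Summed, the pair passed in 1 of 6 settings. That was the length and GC correction, where the log2 fold change was -0.47 (adjusted p = 0.0470 by edgeR). The adjusted p of the pair was 0.145 by DESeq2 and 0.0682 by limma voom. It was 0.122 by edgeR without CTR 4 and 0.135 without CTR 4 and CTR 5. Had a read been counted for both genes, the sum would hold it more than once.

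**Figure D3:**
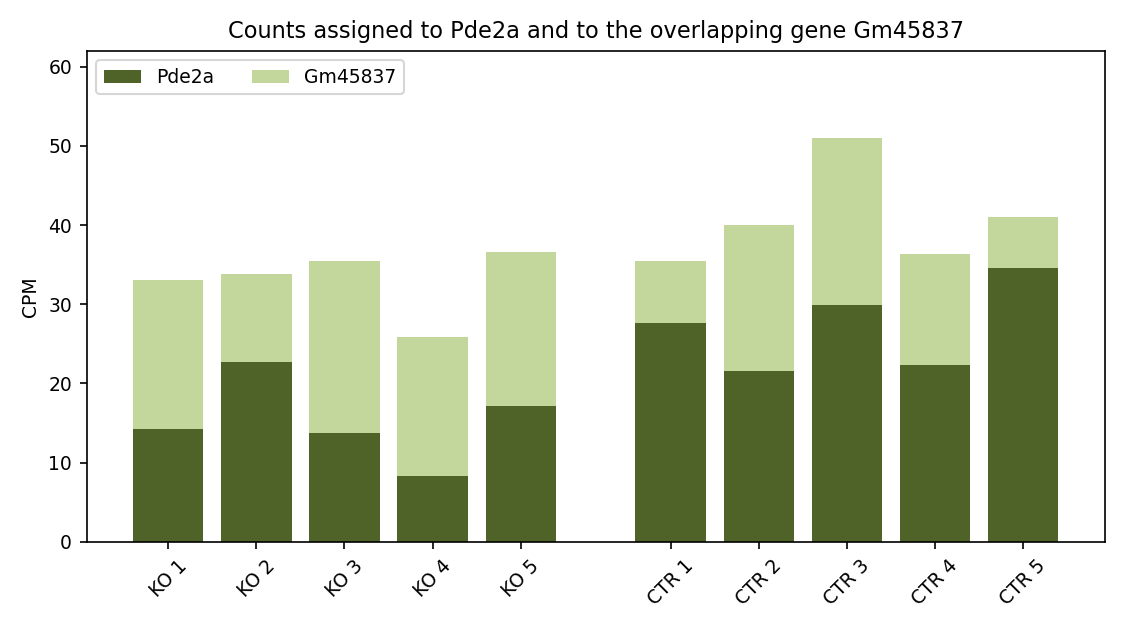
CPM assigned to Pde2a (dark) and to the overlapping gene Gm45837 (light), stacked in 1 bar per library, with KO left and CTR right. The dark parts run from 8.27 to 22.7 CPM in KO and from 21.6 to 34.5 CPM in CTR, while whole bars run from 25.8 to 36.6 CPM in KO and from 35.4 to 51.0 CPM in CTR.

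**Figure D4:**
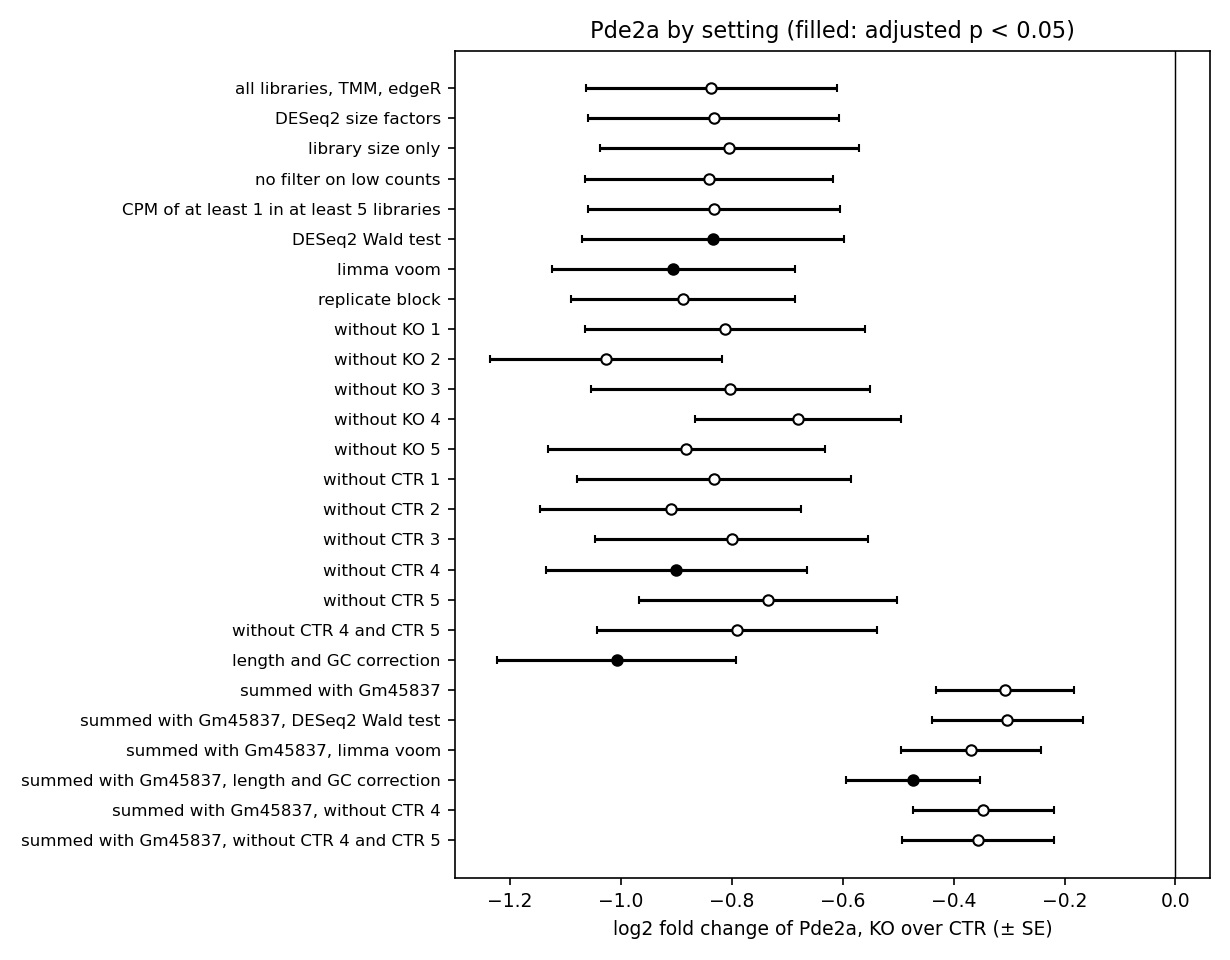
Log2 fold change of Pde2a, KO over CTR (horizontal axis, ± SE), in each setting; filled points have an adjusted p under 0.05. All points lie below 0, at -1.03 to -0.68 for Pde2a alone and at -0.47 to -0.30 for Pde2a summed with Gm45837.

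Of the 15 family genes outside the chosen 9, 4 passed the filter on low counts and none of these was called. Pde8b, the close relative of Pde8a, had 9.21, 9.07, 7.29, 9.57 and 7.87 CPM in KO, and 6.93, 4.73, 7.73, 8.18 and 5.36 CPM in CTR. In KO, 3 of 5 libraries lay above all CTR libraries, and the log2 fold change was 0.39 (SE 0.17, adjusted p = 0.196 by edgeR). Its unadjusted p by edgeR was 0.0370. The log2 fold change of Pde8b was 0.41 (SE 0.18, adjusted p = 0.175 by edgeR) without CTR 4 and CTR 5. The antisense gene Gm48420 overlaps 7.60% of the exon bases of Pde8b and had 5 to 20 counts per library, and the strand setting of the counting is not given.

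Pde6d encodes a prenyl-binding protein with no catalytic activity of its own. It averaged 20.4 ± 2.57 CPM in KO and 20.95 ± 4.13 CPM in CTR, and its log2 fold change was -0.04 (SE 0.14, adjusted p = 0.899), which turned to 0.18 (SE 0.11, adjusted p = 0.338) without CTR 4 and CTR 5. Pde5a, the cGMP-specific target of sildenafil, averaged 2.93 ± 0.836 CPM in KO and 3.15 ± 0.960 CPM in CTR, with a fitted log2 ratio of -0.11 (SE 0.26, adjusted p = 0.837). Without CTR 4 and CTR 5 that of Pde5a was -0.38 (SE 0.23, adjusted p = 0.331). Pde10a, whose enzyme cleaves both nucleotides, had 7 to 27 counts per library in KO and 10 to 21 in CTR, and a fitted log2 ratio of 0.27 (SE 0.35, adjusted p = 0.688), or 0.29 (SE 0.42) without CTR 4 and CTR 5. In all 3 the fitted log2 difference over all libraries was smaller than its SE, which without CTR 4 and CTR 5 held for Pde10a but not for Pde6d and Pde5a.

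The remaining 11 family genes stayed below the filter, and Pde4c and Pde6c among them were at 0 in every library. Pde1c was the most abundant of the 11, with 5 to 21 counts per library in KO and 2 to 18 in CTR. Pde9a, which encodes a cGMP-specific enzyme, had 1 count in CTR 1 and 0 in the other libraries.

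**Figure D5:**
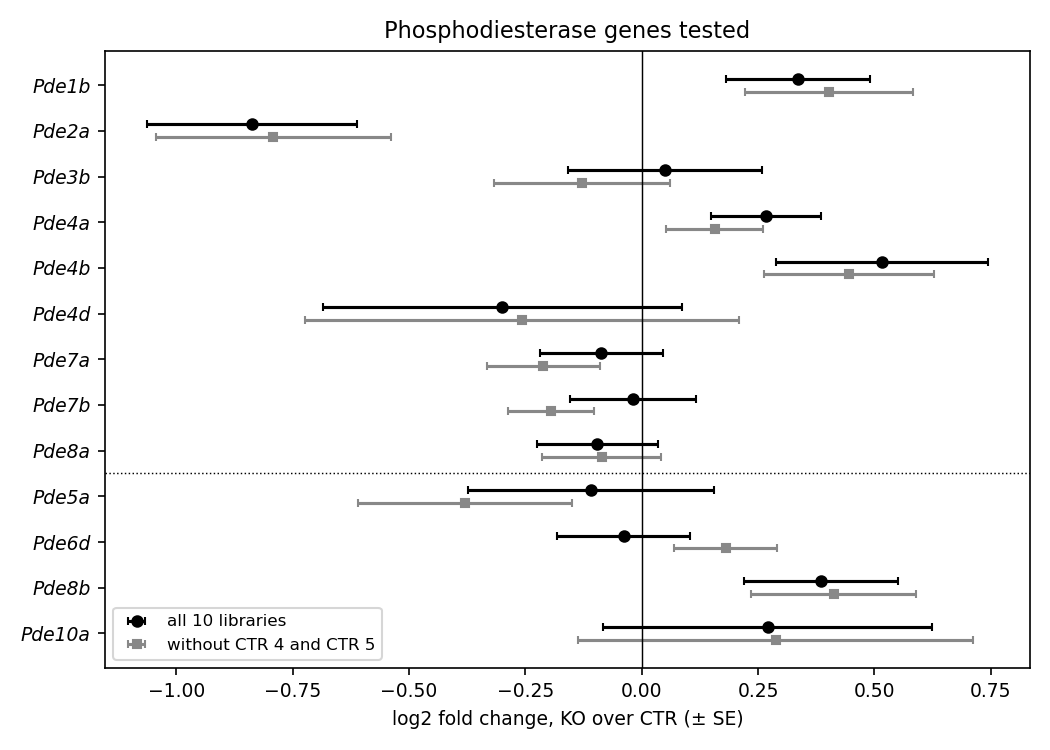
Log2 fold change, KO over CTR (horizontal axis, ± SE), of the 13 family genes tested, with the 9 chosen genes above the dotted line; circles use all 10 libraries and squares leave out CTR 4 and CTR 5. Pde2a lies furthest from 0 at -0.84, and Pde3b and Pde6d change side without CTR 4 and CTR 5.

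The rest of the cyclic nucleotide pathway was taken from 5 lists of 63 genes in all, of which 43 were tested, 1 was called higher and 1 lower in KO, against 3.94% called over all genes tested. In cAMP synthesis, 6 of 12 genes were tested. The gene called higher was Adcy9, an adenylyl cyclase, with 12.5 ± 1.05 CPM in KO and 7.85 ± 1.72 CPM in CTR (SD, n = 5 each) and log2 ratio 0.67 (SE 0.16, adjusted p = 0.0388 by edgeR). Without CTR 4 and CTR 5 it was 0.49 (SE 0.11, adjusted p = 0.0234). The gene called lower was Gnas, at -3.43 (SE 0.11, adjusted p = 9.16e-09).

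The list of cAMP effectors and export holds 15 genes, for protein kinase A subunits and inhibitors, Epac exchange factors, Popeye proteins and the exporter Abcc4. None of the 11 that were tested passed. Their median log2 fold change was 0.12, against -0.01 over all genes tested, and 0.17 without CTR 4 and CTR 5. The median of the 5 lists together was 0.12, or 0.04 without CTR 4 and CTR 5. Among anchors and partners of phosphodiesterases, such as the A-kinase anchoring proteins, 0 of 18 tested genes passed, with a median of 0.11, or 0.02 without CTR 4 and CTR 5. Among CREB factors and their coactivators 0 of 6 passed, with a median of 0.02 that turned to -0.03 without CTR 4 and CTR 5. Among cGMP synthesis and effectors 0 of 2 passed, with 1 higher and 1 lower in value over all libraries. Their median of 0.77, or 0.69 without CTR 4 and CTR 5, is the midpoint of only 2 genes. Of the 43 genes tested, 10 had a fold change above 0 at an unadjusted p under 0.05. This is a larger share than the 1326 of 13203 (10.0%) over all genes tested. Gnas itself was among the 3 of 43 with a fold change below 0 at such a p, a smaller share than the 1569 of 13203 (11.9%). No test was run on these shares.

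For the 3 chosen genes with the highest level per length on the deposited FPKM, the genes most like them over the 10 libraries were found by the correlation of log2 CPM after the mean of each genotype was subtracted, among 8347 genes. For Pde3b these were Phf21a (r = 0.98), Kif21b (r = 0.98) and Foxo1 (r = 0.97). For Pde1b they were Limk2 (r = 0.97), Mapk7 (r = 0.89) and Arglu1 (r = 0.87), and for Pde8a they were Nsun2 (r = 0.91), Inf2 (r = 0.88) and Arntl (r = 0.88). These are the highest of many correlations, their points share library and depth, and they are given as a description.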

How the data were processed

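Bulk RNA sequencing gave 1 deposited table of raw counts per gene and of FPKM, both made by the authors. Per the submitters' processing notes, the build was GRCm39 and the tools were edgeR, HISAT2, SAMtools 1.3.1 and CASAVA 1.8. Counter, annotation release and strand setting: not given in the sources used here. Deposited FPKM equal count over gene length and column total, with a relative deviation of at most 0.000186 at 50 or more counts, which gave the length the authors used. Of 53465 genes, 53274 were matched to a symbol by identifier.

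The deposited counts went through edgeR 4.0.16 (R 4.3.3): filterByExpr (13203 genes, 99.9% of counts), TMM, a two-sided quasi-likelihood test on genotype alone, and Benjamini-Hochberg adjustment over all genes tested. Standard errors of log2 fold changes were derived from the F statistic. Alternatives were other scalings and filters, DESeq2 1.42.0, limma 3.58.1 voom, a replicate block, each library left out, CTR 4 and CTR 5 left out, and a length and GC correction (mgcv 1.9.3). Scripts were tested on simulated data. Gene overlaps came from GENCODE M21 and promoter windows from RefSeq, both on GRCm38, another build than the authors', so positions are given only for the windows. All 9 genes were named whatever their result, other family genes where they passed the filter (Pde1c, Pde4c, Pde6c and Pde9a, and the overlapping genes Gm45837 and Gm48420, after their values were seen), and pathway genes where called. For likeness, genes with an average log2 CPM of at least 3 were compared (pseudocount 0.5), leaving out predicted genes. The members and lists were chosen with earlier results of these data known.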

Additional observations from a re-analysis of the deposited data

Results flagged for a closer look

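Of 22 sets of 5 libraries examined (the 9 genes, Gnas and Gm45837 in each genotype), 2 held a library far from the rest of its group by Dixon's ratio of the gap to the range, with a critical value of 0.71 for 5 samples; chance marks about 1 in 20 sets. Pde4a in KO 3 had 8.63 CPM against 9.79 CPM in the nearest KO library, a ratio of 0.787. Pde7b in KO 2 had 18.2 CPM against 21.7 CPM in the nearest KO library, a ratio of 0.735.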

How the results depend on the processing

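Over the 13 family genes tested and 19 other settings, 226 of 247 fold changes kept their direction and their side of the threshold, 4 passed it (all Pde2a) and 17 turned sign, none of them past the threshold in any setting. Pde3b turned to -0.056 with limma voom and -0.13 without CTR 4 and CTR 5, and ran from -0.087 to 0.20 with single libraries left out. Pde6d turned to 0.0024 with library size only, 0.11 with limma voom and 0.18 without CTR 4 and CTR 5, and ran from -0.11 to 0.047 with single libraries left out. Pde7b turned to 0.012 with library size only and ran from -0.11 to 0.061, and Pde7a from -0.15 to 0.00092. Scaling by library size only moved the median of all genes by 0.04 (log2). No family gene was called higher in any setting, and 1 was called lower, Pde2a, with DESeq2, limma voom, the length and GC correction and without CTR 4, with a range of 0 to 1 over libraries left out.

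Of the 520 calls over all genes, 46.3% were higher in KO, against 59.4% with library size only. The number of calls became 261 with no filter on low counts, 1289 with DESeq2, 1919 with limma voom and 1185 without CTR 4 and CTR 5, and ran from 62 (without KO 2) to 868 (without CTR 4) with single libraries left out. With the replicate block they were 104, and Pde2a had -0.89 (adjusted p = 0.0725). The labels state no pairing of equal numbers, and residuals of equal numbers correlated between -0.126 and 0.0582 over all genes, which cannot exclude a pairing. The cause of these shifts was not tested. The lowest counts were those of Pde4d and Pde10a, at 7 to 35 and 7 to 27 per library. With single libraries left out, the log2 fold change ran from -0.54 to -0.09 for Pde4d, from 0.05 to 0.47 for Pde10a and from -0.26 to -0.0022 for Pde5a.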
